A study of Mus musculus with 12 samples.

Results

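The enzymes described here make purine nucleotides from small precursors. Their 10 genes are Ppat, Gart, Pfas, Paics, Adsl and Atic, which build inosine monophosphate (IMP), Adss and Adssl1, which lead from IMP towards AMP, and Impdh2 and Gmps, which lead from IMP to GMP. They were chosen by name and found in an RNA-seq matrix by their Ensembl mouse gene identifiers, through the GRCm38 annotation. All 10 were present among 28948 genes listed, and all 10 passed the filter on low values, at least 1 RPKM in at least 3 libraries, which left 11245 genes to test. RPKM is the number of reads per kilobase of exon, scaled to the size of the library, so levels of different genes can be compared per length.

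The cells were adipocytes made from 3T3-L1, a line of fibroblast-like cells of mouse embryos (Swiss mouse, per the labels) that turns into fat cells on hormonal induction. The 4 groups, of 3 libraries each, were cells with ectopic overexpression of Foxp1, cells with an empty vector, cells with an shRNA against Foxp1 (knockdown) and cells with a scrambled shRNA. Foxp1 is a forkhead transcription factor. All cells were induced with insulin (5 µg/ml), troglitazone (10 µM), isobutyl methylxanthine (0.5 mM) and dexamethasone (1 µM), then had insulin alone from day 4 and growth medium from day 6. The vector, the promoter that drove the construct, the species of the construct, whether the lines were clones or pools, the day of harvest and what a replicate is are not stated. The p-values therefore measure only the spread between these libraries, which may be technical.

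Between 35252019 and 38450002 reads per library were assigned to genes, so 0.026 to 0.0284 RPKM stood for 1 read per kilobase. Per library, 112 to 482 reads lay behind Adssl1, the thinnest of the 10, and 517 to 9876 behind the others. Foxp1 averaged 6.56 ± 0.71 RPKM with overexpression and 1.80 ± 0.03 with the empty vector, and 1.11 ± 0.03 with knockdown and 2.18 ± 0.06 with the scrambled hairpin (SD, n = 3 each). Overexpression replicate 3 stood apart in its share of mitochondrial reads, at 13.1% beside 9.98% and 9.63% in replicates 1 and 2, so the enzyme values are also given without it where a call or an overlap of groups changes. Fat cell markers were high in every library, with 3300 to 3514 RPKM summed over 8 markers in overexpressing cells, 7281 to 7425 with the empty vector, 8461 to 9001 in knockdown cells and 6098 to 6309 with the scrambled hairpin. Summed markers of macrophages (5 genes) stayed at or below 5.95 RPKM and of endothelium (4 genes) at or below 0.531 RPKM in every library. Across all genes the split into higher and lower calls moved with the scaling of the libraries. For overexpression it was 3490 and 2285 here, against 2437 and 2580 after rescaling to TPM and 2947 and 2791 with median-ratio scaling. For knockdown it was 2100 and 3487 here, against 1615 and 3710 after rescaling to TPM and 2783 and 2791 with median-ratio scaling.

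Purine synthesis starts from phosphoribosyl pyrophosphate (PRPP) and assembles the purine ring on the sugar, with glutamine, glycine, aspartate, bicarbonate and formyl groups carried by folate as building blocks. The first purine nucleotide is IMP, from which separate branches give AMP and GMP. Cells can also recover free bases by salvage, which costs less energy, and dividing cells are known to rely on the synthesis route for DNA and RNA. In fat cells the products also serve as ATP, GTP and the adenine part of coenzymes used in lipid metabolism.

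Overexpression of Foxp1 was accompanied by small rises along most of the route. Of the 10 enzymes, 8 rose and 0 fell at a limma adjusted p under 0.05, where 31% of all 11245 genes rose and 20.3% fell. The median log2 fold change of the 10 was 0.19, beside 0.04 over all genes tested. The 2 that did not pass were Pfas and Adsl, and 6 rose after rescaling to TPM. Knockdown gave calls in both directions. There, 5 enzymes rose (Ppat, Gart, Adsl, Atic and Impdh2), where 18.7% of all genes rose, and 4 fell (Paics, Adss, Adssl1 and Gmps), where 31% of all genes fell. The number that fell was thus near the share of all genes. The fall of Gmps did not pass with median-ratio scaling (limma adjusted p = 0.0777) or quantile normalization (0.0578). The median of the 10 was 0.10, beside -0.04 over all genes. Fold changes are on the log2(RPKM + 1) scale, which understates changes of low genes.

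**Figure D1:**
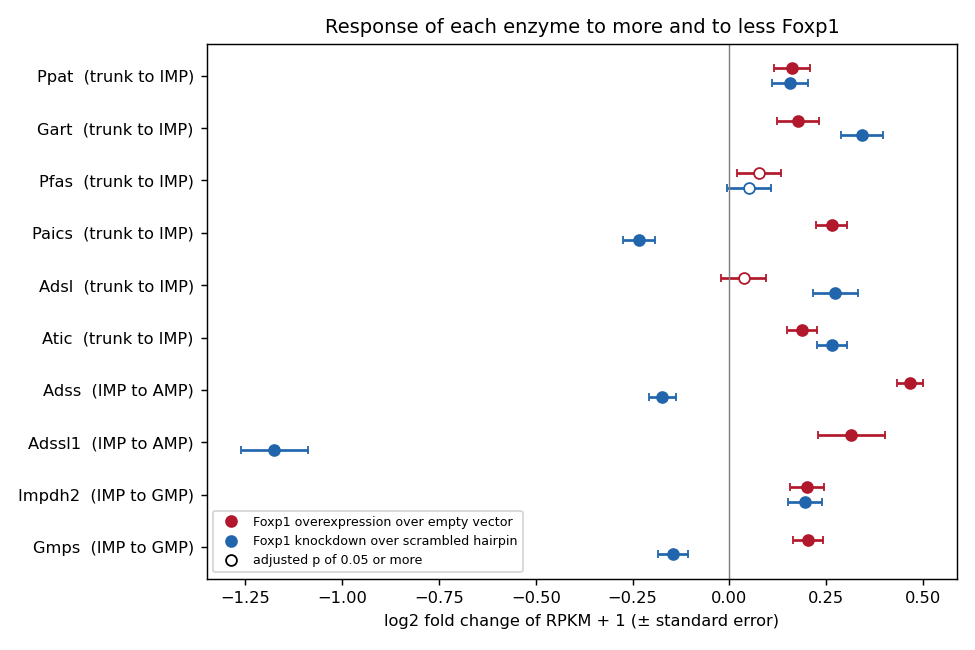
Log2 fold change of RPKM + 1 with its standard error for each of the 10 enzymes, for Foxp1 overexpression over empty vector (red) and Foxp1 knockdown over scrambled hairpin (blue), from limma on 12 libraries. Filled points have an adjusted p under 0.05, and Paics, Adss, Adssl1 and Gmps lie right of 0 for overexpression and left of 0 for knockdown.

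Levels per length differed more between enzymes than between groups. Paics was the highest of the 10 in every group, at a mean of 82.0 RPKM with overexpression, 68.1 with the empty vector, 56.3 with knockdown and 66.4 with the scrambled hairpin. Adss came next in every group, at 21.9, 15.6, 19.3 and 21.9 RPKM in the same order of groups. In knockdown cells its range overlapped that of Impdh2, which followed. Pfas, Ppat and Adssl1 were the lowest. The ranges over libraries also overlapped between Gart and Impdh2, Atic and Gmps, and Adssl1 and Pfas in overexpressing cells, and between Atic and Gmps, Gmps and Adsl, and Pfas and Adssl1 with the empty vector. With the scrambled hairpin Adssl1 stood higher in the order, and its range overlapped that of Ppat.

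**Figure D2:**
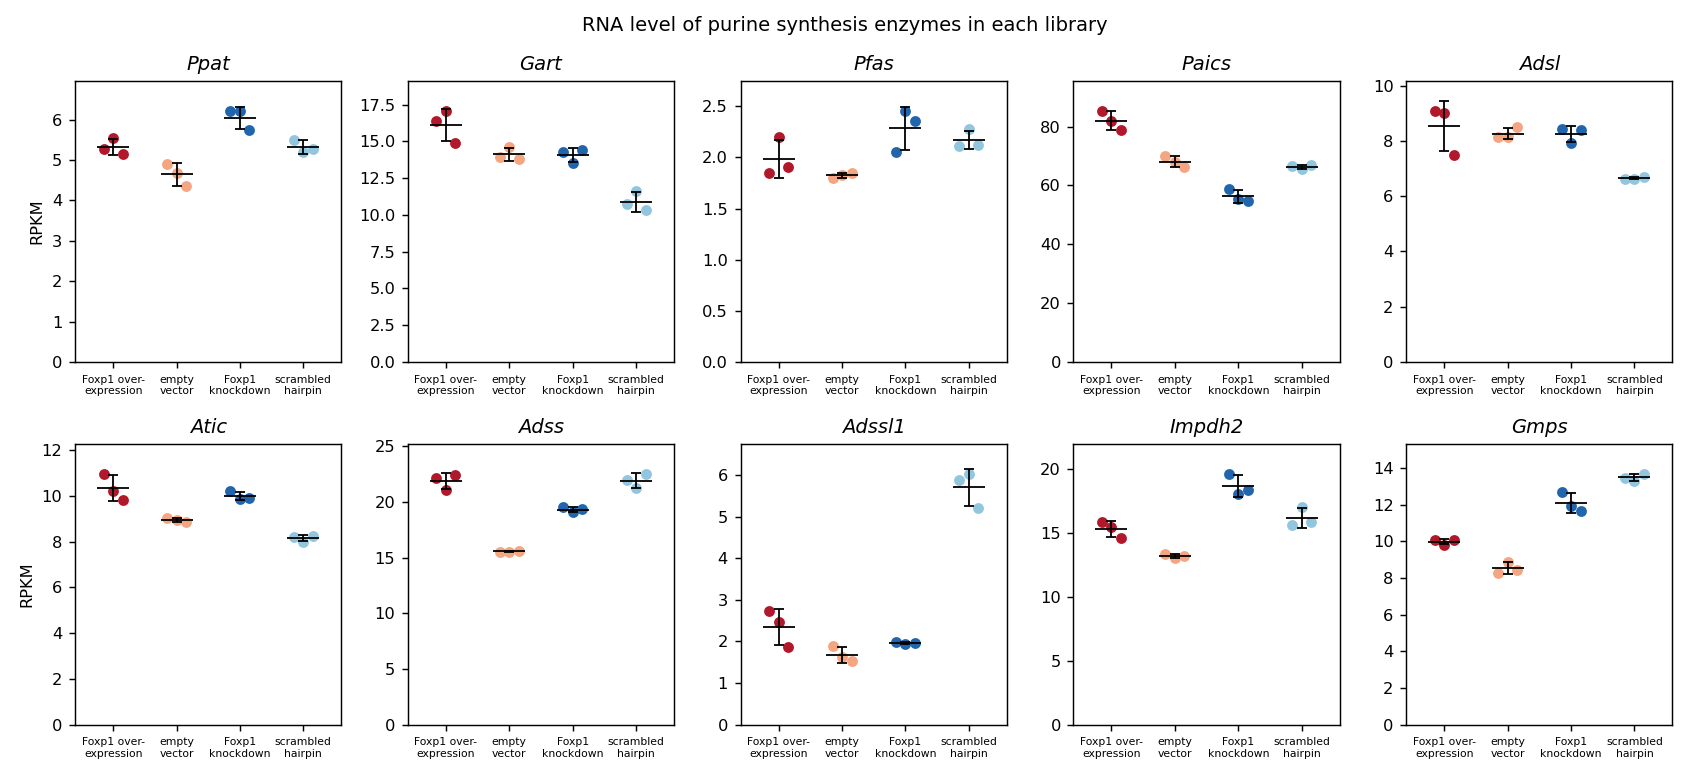
RPKM of each enzyme in each of the 12 libraries (points, 3 per group), with the mean and SD in black; each panel has its own axis, which starts at 0. Overexpressing and empty vector libraries overlap for Pfas, Adsl and Adssl1, and knockdown and scrambled hairpin libraries for Pfas. The share of all genes whose groups do not overlap was not counted, so a lack of overlap is not shown to be particular to these enzymes.

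Ppat, the amidotransferase that starts the route from PRPP and glutamine, rose with either change in Foxp1. Its level was 5.27, 5.53 and 5.14 RPKM in overexpressing libraries, against 4.91, 4.68 and 4.35 with the empty vector. It was 6.21, 6.21 and 5.74 RPKM in knockdown libraries, against 5.51, 5.19 and 5.27 with the scrambled hairpin. Neither pair of groups overlapped, but the gaps were narrow. The log2 fold change was 0.16 in both comparisons (SE 0.0466, limma adjusted p = 0.0117 for overexpression and 0.0142 for knockdown). The first call ended after rescaling to TPM (adjusted p = 0.0954), under quantile normalization (0.0513) and without empty vector replicate 3 (0.0588), and the second after rescaling to TPM (0.0745), without scrambled replicate 2 (0.0518) and without knockdown replicate 1 (0.052).

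Paics catalyses consecutive carboxylase and SAICAR synthase steps in the middle of the route. Its level was 85.3, 82.0 and 78.8 RPKM in overexpressing libraries, against 69.9, 68.0 and 66.3 with the empty vector. In knockdown libraries it was 58.9, 55.3 and 54.8 RPKM, against 66.8, 65.6 and 66.8 with the scrambled hairpin. Every overexpressing library was above, and every knockdown library below, its control libraries. Paics rose with overexpression (log2 fold change 0.26, SE 0.0402, limma adjusted p = 1.47e-04) and fell with knockdown (-0.23, SE 0.0402, adjusted p = 4.80e-04).

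Ppat and Paics stand head to head on mouse chromosome 5 (GRCm38), an arrangement known from several vertebrates. Ppat runs on the minus strand from 76913249 to 76951578 and Paics on the plus strand from 76951307 to 76967509. The annotated starts lie 271 bases apart, and the outermost first exons overlap by 272 bases. The first exon of 1 of the 3 annotated Ppat transcripts, Ppat-201, stops short of Paics. Reads inside the overlap cannot be given to one gene without strand information, and the strand setting of the counting is not stated. The windows around both starts are printed because these neighbours gave opposite responses to knockdown. Each holds 250 bases before to 50 bases after the start in RefSeq (GRCm38.p6), read 5′ to 3′ on the strand of the gene, as chr5:76951529-76951828 on the minus strand for Ppat and chr5:76951052-76951351 on the plus strand for Paics. Capitals mark the letters CACGTG, the E-box that MYC with MAX and the USF factors are known to bind.
Ppat: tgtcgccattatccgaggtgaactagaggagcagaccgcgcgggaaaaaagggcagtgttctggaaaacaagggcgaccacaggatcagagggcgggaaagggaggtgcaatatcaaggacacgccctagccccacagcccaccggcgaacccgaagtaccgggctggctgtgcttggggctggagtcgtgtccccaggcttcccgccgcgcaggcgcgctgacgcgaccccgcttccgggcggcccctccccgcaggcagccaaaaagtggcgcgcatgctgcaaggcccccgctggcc
Paics: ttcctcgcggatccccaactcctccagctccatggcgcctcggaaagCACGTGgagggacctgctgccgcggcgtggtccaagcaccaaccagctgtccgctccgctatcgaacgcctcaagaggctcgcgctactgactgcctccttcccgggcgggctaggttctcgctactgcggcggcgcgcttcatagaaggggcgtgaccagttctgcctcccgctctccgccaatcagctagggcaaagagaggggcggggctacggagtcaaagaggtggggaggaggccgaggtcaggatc
The Ppat window has 66.7% G or C and the Paics window 65.7%. The Paics window holds the E-box with its first base at position -203 from the RefSeq start. The Ppat window, set at the outermost Ppat start, ends before this site and does not hold these letters. The same site lies inside the first exon of each of the 3 annotated Ppat transcripts, so it cannot be given to Paics alone. The ratio of Paics to Ppat, per length, was 15.4 ± 0.70 in overexpressing and 14.7 ± 0.51 in empty vector libraries, and 9.32 ± 0.36 in knockdown and 12.5 ± 0.31 in scrambled libraries (SD, n = 3 each). The knockdown libraries, at 8.90 to 9.56, did not overlap the scrambled libraries, at 12.1 to 12.7.

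**Figure D3:**
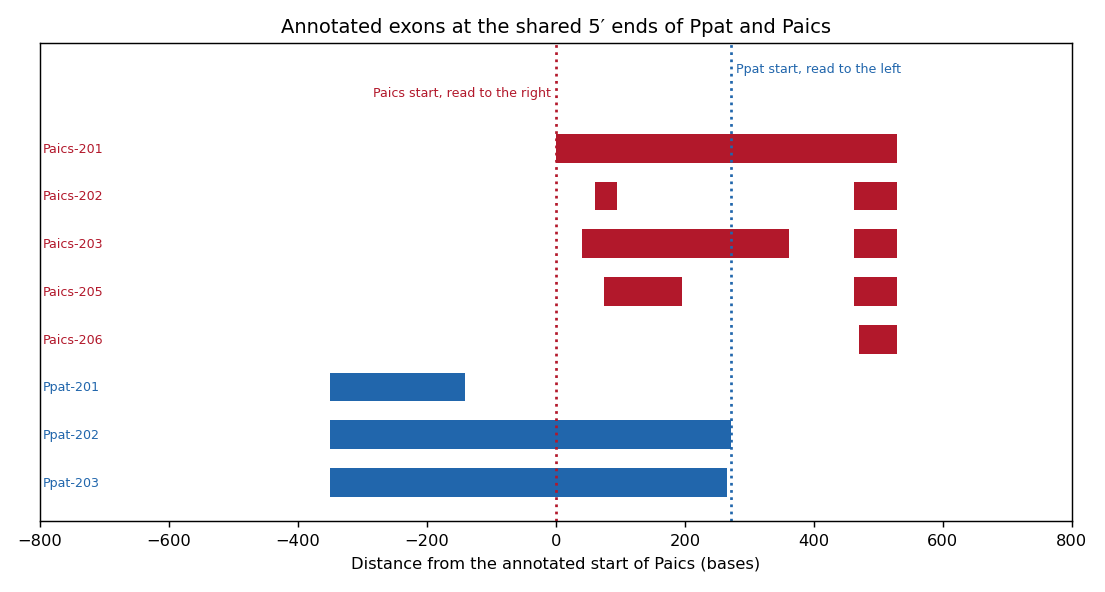
Annotated exons (GENCODE M21) of Paics transcripts (red) and Ppat transcripts (blue) by distance in bases from the Paics start, with dotted lines at the annotated starts of both genes, 271 bases apart. The first exons of Ppat-202 and Ppat-203 extend over the start of Paics, and that of Ppat-201 ends before it.

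Gart carries 3 activities of the route in a single protein, among them a folate-dependent formyl transfer. Its level was 16.4, 17.1 and 14.9 RPKM in overexpressing libraries, against 13.9, 14.6 and 13.8 with the empty vector. In knockdown libraries it was 14.3, 13.5 and 14.4 RPKM, against 10.7, 11.6 and 10.3 with the scrambled hairpin. The knockdown libraries lay inside or close to the range of the empty vector libraries, and the scrambled libraries were the lowest of the 12. Gart rose with overexpression (log2 fold change 0.18, limma adjusted p = 0.0158) and with knockdown (0.34, adjusted p = 2.52e-04). The overexpression value was 0.23 without overexpression replicate 3 (adjusted p = 0.00221), and the call ended after rescaling to TPM (adjusted p = 0.144), without empty vector replicate 3 (0.0564) and without overexpression replicate 2 (0.0693). Gart lies on chromosome 16, 91621186 to 91646952, minus strand, with the start of Son 554 bases away on the opposite strand. Son encodes a splicing cofactor, and had 23.2 ± 1.89 RPKM with overexpression and 23.0 ± 0.94 with the empty vector, and 23.6 ± 1.57 with knockdown and 20.2 ± 0.46 with the scrambled hairpin (adjusted p = 0.895 and 0.00993).

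Atic, which adds the second formyl group and closes the ring to IMP, rose in both comparisons as well. Its level was 11.0, 10.2 and 9.83 RPKM in overexpressing libraries, against 9.03, 8.93 and 8.87 with the empty vector. Knockdown libraries had 10.2, 9.88 and 9.92 RPKM, against 8.21, 8.002 and 8.25 with the scrambled hairpin. Neither pair overlapped (log2 fold change 0.19, limma adjusted p = 0.00144 for overexpression and 0.26, adjusted p = 1.41e-04 for knockdown). Atic lies on chromosome 1, 71557150 to 71579631, plus strand.

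Adsl, a lyase that acts in the trunk and again on the way to AMP, rose with knockdown. It had 8.45, 7.91 and 8.41 RPKM in knockdown libraries, against 6.64, 6.64 and 6.70 with the scrambled hairpin (log2 fold change 0.27, limma adjusted p = 0.00199). In overexpressing libraries it had 9.08, 9.02 and 7.49 RPKM, against 8.15, 8.14 and 8.51 with the empty vector. Replicates 1 and 2 of the overexpressing cells lay above all empty vector libraries and replicate 3 below them (log2 fold change 0.04, adjusted p = 0.629). Without overexpression replicate 3 Adsl passed (0.12, adjusted p = 0.0195), and the count of enzymes that rose was 9. Pfas, which inserts a nitrogen from glutamine, had 1.85, 2.20 and 1.91 RPKM with overexpression, against 1.80, 1.83 and 1.85 with the empty vector, and 2.05, 2.45 and 2.36 RPKM with knockdown, against 2.11, 2.27 and 2.12 with the scrambled hairpin. Both pairs of groups overlapped for Pfas (log2 fold change 0.08, SE 0.0566, adjusted p = 0.278 and 0.05, SE 0.0566, adjusted p = 0.484). Adsl lies on chromosome 15, 80948490 to 80970946, plus strand, and Pfas on chromosome 11, 68985697 to 69008460, minus strand.

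On the branch to AMP, Adss is the adenylosuccinate synthase of most tissues and Adssl1 its muscle isozyme. Adss had 22.2, 21.1 and 22.4 RPKM in overexpressing libraries, against 15.5, 15.5 and 15.6 with the empty vector. In knockdown libraries it had 19.5, 19.1 and 19.3 RPKM, against 21.97, 21.2 and 22.5 with the scrambled hairpin. No pair overlapped, and the rise with overexpression, a ratio of means of 1.41, was the largest of the 10 on the log2(RPKM + 1) scale (log2 fold change 0.47, SE 0.0343, limma adjusted p = 2.24e-07). Adss fell with knockdown (-0.17, SE 0.0343, adjusted p = 0.00127). It lies on chromosome 1, 177762962 to 177796511, minus strand.

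Adssl1 had the largest change of the 10 with knockdown, and a low level in 3 of the 4 groups. It had 1.99, 1.94 and 1.97 RPKM in knockdown libraries, against 5.89, 6.03 and 5.20 with the scrambled hairpin. In overexpressing libraries it had 2.72, 2.46 and 1.86 RPKM, against 1.89, 1.63 and 1.52 with the empty vector. The scrambled libraries stood apart from the other 9. The ratio of means was 0.345 for knockdown over scrambled hairpin (log2 fold change -1.18, SE 0.0869, limma adjusted p = 9.43e-07) and 1.40 for overexpression over empty vector (0.31, SE 0.0869, adjusted p = 0.00947), where the ranges overlapped. Without overexpression replicate 3 they did not, at 2.46 to 2.72 RPKM with overexpression and 1.52 to 1.89 with the empty vector (0.42, limma adjusted p = 2.62e-04). Adssl1 made up 9.69% ± 1.77 of the summed RPKM of both isozymes in overexpressing and 9.74% ± 1.01 in empty vector libraries, and 9.25% ± 0.02 in knockdown and 20.7% ± 1.73 in scrambled libraries. The sum itself was 24.2 ± 0.69 RPKM with overexpression and 17.2 ± 0.17 with the empty vector, and 21.3 ± 0.24 with knockdown and 27.6 ± 0.32 with the scrambled hairpin (SD, n = 3 each). Since Adssl1 is known from muscle, 8 skeletal muscle markers were read beside it. Of these, Myod1, Myh1 and Myh4 are not listed in the matrix, Myog and Ckm were at or near 0, and Des and Acta1 carried nearly all of a summed level of 44.6 to 50.7 RPKM in overexpressing and 24.3 to 25.1 in empty vector libraries, and 9.53 to 10.5 in knockdown and 10.5 to 11.9 in scrambled libraries. Adssl1 lies on chromosome 12, 112620045 to 112641360, plus strand.

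On the branch to GMP, Impdh2 oxidises IMP to XMP and Gmps aminates XMP to GMP. Impdh2 rose in both comparisons, with 15.8, 15.4 and 14.6 RPKM in overexpressing libraries, against 13.3, 13.01 and 13.2 with the empty vector (log2 fold change 0.20, limma adjusted p = 0.00256). In knockdown libraries it had 19.6, 17.995 and 18.3 RPKM, against 15.6, 17.02 and 15.9 with the scrambled hairpin (0.20, adjusted p = 0.00329). Neither pair overlapped. Impdh2 lies on chromosome 9, 108560286 to 108565584, plus strand, and overlaps Ndufaf3 on the minus strand. Ndufaf3, an assembly factor of respiratory complex I, had 10.0 ± 0.31 RPKM with knockdown and 14.3 ± 0.32 with the scrambled hairpin, a fall, while Impdh2 rose (log2 fold change of Ndufaf3 -0.47, adjusted p = 9.09e-06). The annotated pseudogene Impdh2-ps stayed at or below 0.388 RPKM in every library.

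Gmps moved in the same direction as Paics and Adss in each comparison, though unlike Paics its level was higher in knockdown than in overexpressing libraries. It had 10.1, 9.81 and 10.1 RPKM in overexpressing libraries, against 8.29, 8.88 and 8.45 with the empty vector (log2 fold change 0.20, limma adjusted p = 7.70e-04). In knockdown libraries it had 12.7, 11.9 and 11.7 RPKM, against 13.5, 13.3 and 13.7 with the scrambled hairpin (-0.15, adjusted p = 0.00734). No pair overlapped, but the call in knockdown ended with median-ratio scaling (adjusted p = 0.0777) and quantile normalization (0.0578). Gmps lies on chromosome 3, 63976106 to 64022579, plus strand.

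The isozyme of Impdh2, Impdh1, is not among the 10 but carried most of the IMP dehydrogenase RNA of these cells. It had 35.7, 36.1 and 36.5 RPKM in overexpressing libraries, against 182, 180.2 and 183 with the empty vector. Knockdown libraries had 207, 208 and 209 RPKM, against 169, 176 and 166 with the scrambled hairpin. All overexpressing libraries were far below all others (ratio of means 0.199 to empty vector, log2 fold change -2.30, limma adjusted p = 1.93e-13), and Impdh1 rose with knockdown (0.29, adjusted p = 1.88e-05). Its share of the summed RPKM of both isozymes was 70.3% ± 1.11 with overexpression and 93.2% ± 0.06 with the empty vector, and 91.8% ± 0.37 with knockdown and 91.3% ± 0.19 with the scrambled hairpin. The sum was 51.4 ± 0.28 RPKM with overexpression and 194.9 ± 1.53 with the empty vector, so the rise of Impdh2 was much smaller than the drop of Impdh1 (SD, n = 3 each). The pooled level in bulk RNA cannot tell fewer cells with a transcript from less of it per cell.

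**Figure D4:**
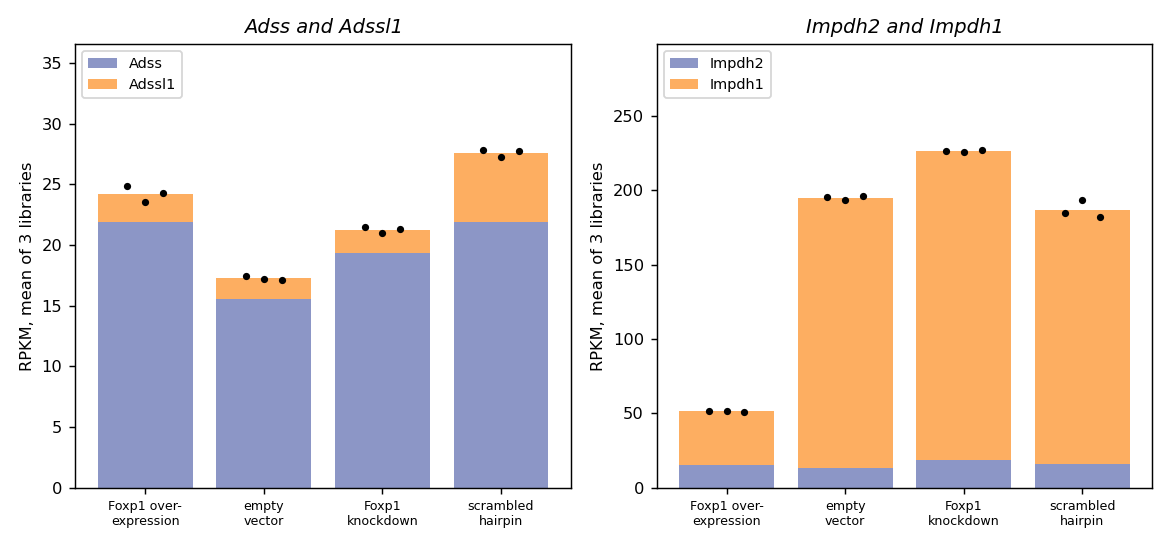
Stacked mean RPKM of the isozyme pairs Adss with Adssl1 (left) and Impdh2 with Impdh1 (right) in each group (bars, n = 3), with the sum in each library as black points. The Adssl1 part is largest with the scrambled hairpin, and the Impdh1 part is smallest with Foxp1 overexpression.

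The windows of Atic and Impdh2 hold the same E-box letters as that of Paics, and 50 bases around each are printed because these 3 were the members with the match. They come from RefSeq (GRCm38.p6), chr1:71557127-71557176 for Atic and chr9:108560304-108560353 for Impdh2, both on the plus strand, with CACGTG in capitals.
Atic: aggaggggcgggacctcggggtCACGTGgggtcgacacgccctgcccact
Impdh2: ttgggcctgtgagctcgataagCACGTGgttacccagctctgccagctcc
The first base of the E-box lies at position -7 from the RefSeq start for Atic and -110 for Impdh2. The starts in the annotation used for the gene positions differ from those of RefSeq, and from them the E-box lies at -1 for Atic, -208 for Paics and 40 bases downstream for Impdh2. Windows of 9 of the 10 enzymes were matched, Pfas having no entry. Of these, 3 hold CACGTG (which reads the same on both strands), beside 7.15% of 32851 windows of all genes. The forkhead motif GTAAACA, or TGTTTAC on the other strand, is in 0 of the 9 windows, beside 3.65% of all windows. At that share 0 of 9 is a likely outcome for any set of genes. Only this exact string and only these windows were searched, so a lack of forkhead sites is not shown. The 3 enzymes with the E-box in their window all rose with overexpression, as did most of the 10. With knockdown Paics fell while Atic and Impdh2 rose. Whether the motif or the factors that bind it bear on the enzymes was not tested. Among genes known to act through this motif, Myc had 34.1, 36.1 and 35.8 RPKM with overexpression, against 20.7, 21.4 and 19.7 with the empty vector, and 36.1, 34.3 and 36.7 RPKM with knockdown, against 25.7, 25.6 and 26.7 with the scrambled hairpin. Myc rose in both comparisons (log2 fold change 0.75, limma adjusted p = 1.43e-08 and 0.44, adjusted p = 4.98e-06). Its partner Max rose with overexpression (0.66, adjusted p = 1.27e-08) and fell with knockdown (-0.22, adjusted p = 2.83e-04). Usf2 also rose with overexpression and fell with knockdown (0.16, adjusted p = 0.00677, or 0.0681 with median-ratio scaling, and -0.28, adjusted p = 1.86e-04), while Usf1 fell with overexpression (-0.28, adjusted p = 0.00736, or -0.18 without overexpression replicate 3, adjusted p = 0.014) and did not pass with knockdown (-0.02, adjusted p = 0.845). Mxi1, an antagonist of MYC, fell with knockdown (-0.47, adjusted p = 5.24e-06). Of 11 candidate regulators tested, 3 rose and 2 fell with overexpression and 2 rose and 4 fell with knockdown. Over all genes, 31% rose and 20.3% fell with overexpression, and 18.7% rose and 31% fell with knockdown, so these counts were near the shares of all genes.

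Whether the responses to more and to less Foxp1 differed was tested in the same model as the overexpression response minus the knockdown response. The difference was above 0 for 4 enzymes, where 34.6% of all genes were, and below 0 for 1, where 20.3% of all genes were. The 4 were Adssl1 (1.49, limma adjusted p = 7.33e-07), Adss (0.64, adjusted p = 3.55e-07), Paics (0.50, adjusted p = 1.28e-05) and Gmps (0.35, adjusted p = 1.62e-04). Each of the 4 rose with overexpression and fell with knockdown, against its own control. A difference between the 2 controls enters this contrast in full. Scrambled hairpin over empty vector was 1.32 for Adssl1, 0.47 for Adss, 0.60 for Gmps and -0.04 for Paics. Adsl was the 1 below 0 (-0.24, adjusted p = 0.0273), a call that ended without a filter on low values (0.0655), without empty vector replicate 3 (0.0639), without knockdown replicate 1 or 3 (0.0579 each) and without replicate 1 (0.051) or 2 (0.0501) of the scrambled hairpin. Gart (-0.16, adjusted p = 0.0859) reached the threshold without overexpression replicate 2 (0.0416) or scrambled replicate 2 (0.0354). For Ppat the difference was 0.00 with SE 0.0659 and for Impdh2 0.01 with SE 0.0633, and neither passed (adjusted p = 0.955 and 0.949). With median-ratio scaling or quantile normalization the number below 0 was 3, Gart (adjusted p = 0.00546 and 0.00671) and Atic (0.015 and 0.0151) joining Adsl.

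The controls themselves differed, which bears on both comparisons since each control serves 1 of them. With the scrambled hairpin set against the empty vector, 6 enzymes were higher, where 44.8% of all genes were, and 3 were lower, where 27% of all genes were. Adssl1 was 3.40 times as high with the scrambled hairpin (log2 fold change 1.32, limma adjusted p = 3.98e-08), Gmps 1.58 times (0.60, adjusted p = 2.98e-08) and Adss 1.41 times (0.47, adjusted p = 1.10e-07). Impdh2 (0.28, adjusted p = 1.25e-04), Ppat (0.16, adjusted p = 0.00707) and Pfas (0.17, adjusted p = 0.0198) were higher too, while Gart (-0.35, adjusted p = 8.87e-05), Adsl (-0.28, adjusted p = 9.71e-04) and Atic (-0.12, adjusted p = 0.0146) were lower. Paics did not pass (-0.04, adjusted p = 0.439). The calls of Ppat and Pfas ended with median-ratio scaling (adjusted p = 0.167 and 0.143), that of Pfas also without empty vector replicate 1 (0.0538) or scrambled replicate 2 (0.0713), and that of Atic after rescaling to TPM (0.363) and without scrambled replicate 2 (0.0513). For Adssl1, Gmps, Impdh2 and Pfas the difference between the controls was larger than either response on the log2 scale, in size without regard to sign. For 4 others it matched the larger response to within the standard error. These were Adss (0.467 between the controls, 0.466 with overexpression), Ppat (0.164, and 0.162 with overexpression), Gart (-0.346, and 0.342 with knockdown) and Adsl (-0.2753, and 0.2735 with knockdown). For Paics and Atic it was smaller. How often this held over all genes was not counted. The construct and whatever else set the 2 arms of the study apart cannot be told apart. Comparisons that share control libraries are not independent, so no correlation between them is given.

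Markers of dividing cells were also called in these contrasts, in directions that only some of the enzymes shared. Between the controls Gart, Adsl and Atic went the other way, and with knockdown Paics, Adss, Adssl1 and Gmps fell while no marker did. All 9 markers rose with overexpression (median log2 fold change 0.26), where 31% of all genes rose. With knockdown 7 of 9 rose and 0 fell (0.18), where 18.7% of all genes rose. All 9 were higher with the scrambled hairpin than with the empty vector (1.21), where 44.8% of all genes were. Their summed level was 28.8 to 31.4 RPKM in overexpressing and 22.6 to 24.2 in empty vector libraries, and 51.4 to 57.3 in knockdown and 45.7 to 48.9 in scrambled libraries. Mki67 was at 0.577 ± 0.071 RPKM with overexpression and 0.251 ± 0.028 with the empty vector, and 2.23 ± 0.15 with knockdown and 1.85 ± 0.03 with the scrambled hairpin (SD, n = 3 each). It passed the filter on low values only through the hairpin arm, where it was higher, so its call between the controls is no separate sign of a difference. Whether other markers passed in this way was not counted, so the count of 9 between the controls is not read as a result. Fat cell markers went the other way with overexpression, 7 of 7 tested falling (median -0.54), where 20.3% of all genes fell. With knockdown 4 of them rose and 2 fell (0.20), where 18.7% of all genes rose and 31% fell. Of 6 preadipocyte or fibroblast markers tested, 4 rose and 2 fell with overexpression (median 0.44), where 31% of all genes rose and 20.3% fell. With knockdown 1 rose and 3 fell (-0.12), where 18.7% of all genes rose and 31% fell. Col1a1, a collagen chain, and Thy1, a surface protein of fibroblasts, rose with overexpression (0.60, limma adjusted p = 2.13e-06 and 0.53, adjusted p = 1.40e-05) and fell with knockdown (-0.22, adjusted p = 0.00553 and -0.34, adjusted p = 6.25e-04), while Ly6a fell in both (-1.05, adjusted p = 3.75e-08 and -0.32, adjusted p = 0.00143). The summed level of this list was 379.8 to 384 RPKM in overexpressing and 270.2 to 298 in empty vector libraries, and 291 to 329 in knockdown and 338 to 383 in scrambled libraries, with Cd34 near 0 and Dpp4 not listed in the matrix. The part of these 3 marker lists in the enzyme values was not tested.

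The genes whose pattern was most like that of the 6 enzymes of the trunk to IMP were looked for among 6652 genes of at least 5 RPKM on average. Likeness was the root mean square difference between a gene's z score of log2(RPKM + 1) and the mean z score of the 6, over all 12 libraries. The closest 5 were Dync1li1, a light intermediate chain of dynein (0.458), Cavin2, a caveolar coat protein (0.476), Rrp7a, a ribosome processing factor (0.485), Smc1a, a cohesin subunit (0.491), and Lima1, an actin-binding protein (0.4925). Atic (0.498) and Gart (0.606) lay closest to the mean of which they are part, while Pfas (1.07) and Paics (1.03) lay as far from it as Adss (1.05). The mean z score was 0.80, 1.03 and 0.12 in overexpressing libraries, against -0.28, -0.34 and -0.48 with the empty vector, and 0.40, 0.40 and 0.36 in knockdown libraries, against -0.66, -0.61 and -0.75 with the scrambled hairpin. Overexpression replicate 3 was the lowest of its group and still above all libraries of both controls.

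Of 5 genes listed for the synthesis of PRPP, the substrate of Ppat, 1 rose and 3 fell with overexpression (median log2 fold change -0.12), and 3 rose and 0 fell with knockdown (0.12). Over all genes tested, 31% rose and 20.3% fell with overexpression, and 18.7% rose and 31% fell with knockdown. These shares stand beside the counts of this list and of every list below, and no list was tested against them. The list includes Prpsap1 and Prpsap2, which are not synthetases and were among those that fell. The 1 that rose was the synthetase Prps2 (0.14, limma adjusted p = 0.0439). This call was near the threshold and was not run under other scalings or with libraries left out. Prps1, a PRPP synthetase, had 18.8, 17.3 and 19.0 RPKM with overexpression, against 34.7, 33.6 and 33.1 with the empty vector, and 31.1, 27.8 and 30.2 RPKM with knockdown, against 20.3, 21.5 and 21.8 with the scrambled hairpin. It fell and rose (log2 fold change -0.84, limma adjusted p = 2.78e-08 and 0.47, adjusted p = 1.29e-05). Overexpressing and scrambled libraries were thus low, and empty vector and knockdown libraries high. Prpsap1 and Prpsap2, proteins associated with the synthetase, fell with overexpression (-0.12, adjusted p = 0.0389 and -0.26, adjusted p = 0.013). The call of Prpsap1 ended without any of 5 of the 6 libraries compared, at adjusted p of 0.0632 to 0.123. Prpsap1 rose with knockdown (0.34, adjusted p = 7.35e-05), as did Prps1l3 (0.12, adjusted p = 0.00933, or 0.0764 after rescaling to TPM).

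Salvage genes were called in both directions. Of 7, 1 rose and 2 fell with overexpression (median -0.08), and 3 rose and 2 fell with knockdown (0.04). Hprt, which recovers hypoxanthine and guanine, averaged 60.5 ± 1.61 RPKM with overexpression and 74.1 ± 1.3 with the empty vector, and 141 ± 5.13 with knockdown and 124 ± 4.27 with the scrambled hairpin (limma adjusted p = 5.99e-05 and 0.00176). Its level was higher in either group of the hairpin arm than in either group of the vector arm. Dck, a deoxynucleoside kinase, rose with overexpression (0.40, adjusted p = 2.28e-05) and fell with knockdown (-0.27, adjusted p = 6.48e-04). Dguok, the mitochondrial deoxyguanosine kinase, fell with knockdown (-0.31, adjusted p = 1.82e-05). Its fall with overexpression (-0.10, adjusted p = 0.0317) ended without any of 4 of the 6 libraries compared, at 0.0605 to 0.121.

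Of 8 breakdown genes tested, 3 rose and 4 fell with overexpression (median 0.00), and 4 rose and 2 fell with knockdown (0.14). Ampd3, an AMP deaminase that turns AMP back into IMP, had 6.06, 6.94 and 6.95 RPKM with overexpression, against 3.21, 3.28 and 3.16 with the empty vector. With knockdown it had 1.31, 1.32 and 1.21 RPKM, against 3.32, 3.42 and 3.31 with the scrambled hairpin. The controls were close to each other here, and the responses were opposite (0.86, limma adjusted p = 1.70e-08 and -0.93, adjusted p = 6.89e-08). Guanine deaminase, Gda, fell in both comparisons (-0.31, adjusted p = 2.84e-04 and -0.90, adjusted p = 1.17e-07). Nt5c2, a nucleotidase acting on IMP and GMP, fell with overexpression and rose with knockdown (-0.27, adjusted p = 2.34e-04 and 0.31, adjusted p = 1.04e-04).

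Among 10 other enzymes that interconvert AMP, GMP and their phosphates, Impdh1 included, 2 rose and 2 fell with overexpression (median 0.00), and 3 rose and 3 fell with knockdown (0.12). The mitochondrial adenylate kinase Ak4 rose with overexpression, to 7.91 ± 0.73 RPKM against 2.63 ± 0.26 with the empty vector, and fell with knockdown, to 16.3 ± 0.65 against 20.3 ± 0.83 with the scrambled hairpin (limma adjusted p = 6.17e-09 and 0.00213). Ak4 levels in the hairpin arm were above both groups of the vector arm. The cytosolic Ak1 went the other way (-0.38, adjusted p = 0.00305 and 0.51, adjusted p = 4.82e-04). Ak3, a kinase of AMP that uses GTP, rose with overexpression and fell with knockdown (0.15, adjusted p = 0.00662 and -0.24, adjusted p = 2.28e-04).

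Suppliers of the building blocks were read by precursor. Of 8 genes of glutamine and aspartate supply, 6 rose and 0 fell with overexpression (median 0.37), where 31% of all genes rose. With knockdown 0 rose and 4 fell (-0.05), where 31% of all genes fell. Glul, glutamine synthetase, had 831, 840 and 868 RPKM with overexpression, against 639, 654 and 684 with the empty vector, and 457, 469 and 461 RPKM with knockdown, against 620, 638 and 606 with the scrambled hairpin. It rose and fell like Paics (0.36, limma adjusted p = 9.80e-06 and -0.43, adjusted p = 5.65e-06). Got2, the mitochondrial aspartate transaminase, and the aspartate carriers Slc25a12 and Slc25a13 rose with overexpression (0.45, 0.51 and 0.71, adjusted p = 1.56e-07, 1.95e-07 and 2.67e-06) and fell with knockdown (-0.10, -0.17 and -0.21, adjusted p = 0.0175, 0.00195 and 0.0221). The knockdown call of Got2 ended without scrambled replicate 2 (0.0675) or knockdown replicate 2 (0.0578) and with median-ratio scaling (0.237).

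Of 14 folate genes tested, 7 rose and 2 fell with overexpression (median 0.14), and 6 rose and 3 fell with knockdown (0.10). Mthfd1l, which makes formate in mitochondria, rose in both (0.88, limma adjusted p = 4.95e-08 and 0.30, adjusted p = 7.66e-04). Aldh1l1, which oxidises the formyl folate that Gart and Atic use, had 13.04 ± 1.80 RPKM with overexpression and 7.25 ± 0.47 with the empty vector, and 5.61 ± 0.59 with knockdown and 11.2 ± 0.57 with the scrambled hairpin (adjusted p = 1.75e-05 and 9.06e-06). Slc25a32, the mitochondrial folate carrier, moved in the same directions with smaller steps (0.23, adjusted p = 0.00164 and -0.17, adjusted p = 0.0125). Shmt1 and Shmt2, which load folate from serine, rose with knockdown (0.48, adjusted p = 1.59e-05 and 0.41, adjusted p = 1.03e-05). With overexpression Shmt1 fell (-0.20, adjusted p = 0.00645) and Shmt2 did not pass (29.1 ± 1.01 RPKM, against 29.1 ± 0.82 with the empty vector).

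In serine and glycine supply, 2 of 6 rose and 3 fell with overexpression (median -0.06), and 1 rose and 2 fell with knockdown (0.03). Psat1 fell with overexpression, to 64.7 ± 1.88 RPKM against 111 ± 0.57 with the empty vector (log2 fold change -0.77, limma adjusted p = 1.43e-09). Phgdh, which starts serine synthesis, rose with knockdown, to 36.2 ± 1.81 RPKM against 23.6 ± 0.88 with the scrambled hairpin (0.60, adjusted p = 3.65e-05). The amino acid transporter Slc1a5 fell in both comparisons (-0.28, adjusted p = 9.54e-05 and -0.33, adjusted p = 3.77e-05). Slc1a4 rose with overexpression and fell with knockdown (0.52, adjusted p = 7.71e-07 and -0.27, adjusted p = 2.56e-04).

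The pyrimidine route and ribonucleotide reductase, which makes deoxynucleotides from both kinds of base, were read beside the purine route. Of 11 pyrimidine genes, 5 rose and 2 fell with overexpression (median 0.07), where 31% of all genes rose and 20.3% fell. With knockdown 8 rose and 1 fell (0.20), where 18.7% of all genes rose and 31% fell. The CTP synthase Ctps2 fell with overexpression and rose with knockdown (-0.56, limma adjusted p = 1.56e-07 and 0.20, adjusted p = 0.00144). Uck1, a uridine kinase, fell in both (-0.39, adjusted p = 1.85e-04 and -0.38, adjusted p = 2.57e-04), and Uck2 rose in both (0.30, adjusted p = 1.65e-05 and 0.12, adjusted p = 0.0138). Dctd, Tyms and Ctps rose with knockdown (0.60, 0.32 and 0.26, adjusted p = 5.68e-06, 1.77e-04 and 2.57e-04). All 3 ribonucleotide reductase subunits rose with overexpression (median 0.20), Rrm2b not after rescaling to TPM (adjusted p = 0.0769). With knockdown 0 rose and 1 fell (median 0.04), which was Rrm2b (-0.13, adjusted p = 0.00946, or 0.057 with median-ratio scaling). Rrm2 had 3.24 ± 0.24 RPKM with overexpression and 1.89 ± 0.13 with the empty vector (adjusted p = 1.18e-05). With knockdown it had 9.50 ± 0.85 RPKM and with the scrambled hairpin 8.46 ± 0.31, which did not pass (adjusted p = 0.0667).

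**Figure D5:**
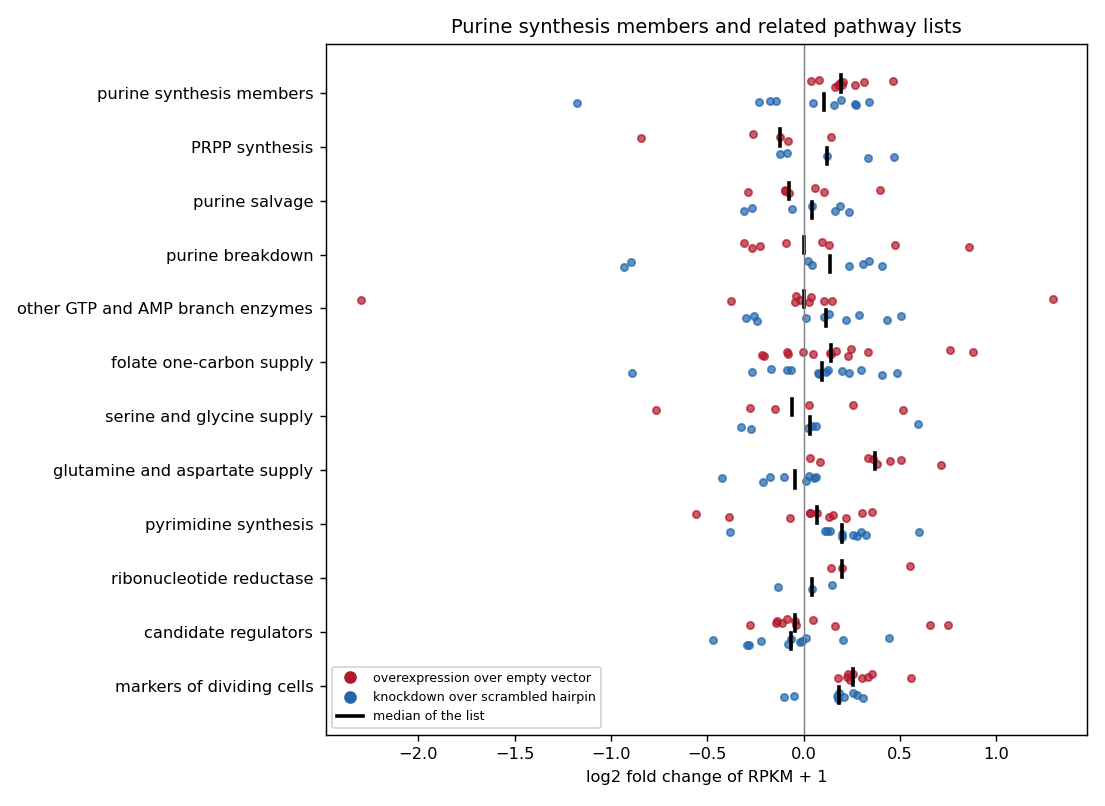
Log2 fold change of RPKM + 1 of every tested gene (points) of the 10 purine synthesis enzymes and of related lists, for overexpression over empty vector (red) and knockdown over scrambled hairpin (blue), with the median of each list as a black bar. Medians of the purine synthesis enzymes are 0.19 and 0.10, those of glutamine and aspartate supply 0.37 and -0.05, and Impdh1 is the leftmost point at -2.30.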

How the data were processed

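The 12 libraries of sequenced RNA fell into 4 groups of 3. The values are RPKM per gene and library, computed by the authors before they were deposited. The deposited numbers were RPKM divided by 1000, judged from their sums of 311.82 to 357.68 per library and from what 1 read was worth. Multiplying by 1000 restored RPKM. HISAT2 2.1.0, Subread 1.5.3 with its featureCounts and genome build mm10 are named in the submitters' processing notes, while strand and multi-mapping settings are not given in the sources used here. Identifiers match Ensembl release 98. Names, positions and exon lengths came from GENCODE M21 on the same assembly, matched for 28896 of 28948 genes.

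The test was limma 3.58.1 (R 4.3.3, eBayes with a trend) on log2(RPKM + 1), in 1 model of 4 groups. It covered the 11245 genes that reached 1 RPKM in 3 or more libraries. Benjamini-Hochberg adjusted p under 0.05 over all genes was the threshold, and no set test was run. Contrasts were overexpression minus empty vector, knockdown minus scrambled hairpin, the first of these minus the second, and scrambled hairpin minus empty vector. The test was tested on simulated data. Whole reads, within 0.05 of a read, were recovered for 98.83% to 98.93% of values from the exon lengths and used for depth and the voom alternative. Columns left unused numbered 0.

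The enzymes and the related lists were chosen with earlier results of these data known. Named were all 10 enzymes, up to 3 genes per list and comparison by smallest adjusted p, genes on which a statement turns, the 5 most alike genes and near neighbours. Ndufaf3, which overlaps Impdh2, and Usf1 were named after their values were seen. Same-numbered replicates did not deviate together, with correlations of -0.073 to 0.118 across genes, so the numbers do not pair the libraries. Alternatives were other pseudocounts, filters, scalings, variance models, thresholds, a replicate block, voom on recovered reads, only the libraries compared and leaving out each library. Figures were drawn with matplotlib 3.10.9 and tables with numpy 2.4.6 and pandas 2.3.3 under Python 3.11.15.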

Additional observations from a re-analysis of the deposited data

How the results depend on the processing

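With a replicate block or without one, the counts over the 10 enzymes were equal in every comparison, at 8 higher and 0 lower for overexpression, 5 and 4 for knockdown, 4 and 1 for the difference of the responses and 6 and 3 for the controls. Calls over all genes numbered 5888 with the block and 5775 without it for overexpression, 5709 and 5587 for knockdown, 6328 and 6173 for the difference, and 8164 and 8070 for the controls.

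The number of enzymes whose difference of responses lay below 0, 1 as reported, was 0 without a filter on low values and at an adjusted p of 0.01, and 3 under either of median-ratio scaling or quantile normalization. Leaving out 1 library at a time gave 0 to 2. The cause was not tested. The counts of the other directions stayed within 1.5 times in every alternative run. When 1 library was left out at a time, overexpression gave 6 to 9 higher, knockdown 4 to 5 higher and 4 lower, and the controls 5 to 6 higher and 2 to 3 lower.

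Among the enzymes and those other named genes that were put through the alternatives, signs turned only for values that had not passed. Some named values were not put through them, among them Prps2 with overexpression, Max with knockdown, Son and Ndufaf3. For Adsl in overexpression the log2 fold change was -0.0115 after rescaling to TPM, -0.0006 with median-ratio scaling and -0.0061 after quantile normalization, and -0.0063 to 0.1174 when a library was left out. For the difference of responses, Ppat gave -0.0014 with a pseudocount of 5, -0.0081 with TPM, -0.0732 with median-ratio scaling, -0.096 with quantile normalization and -0.0332 to 0.0388 with a library left out. Impdh2 gave -0.0013, -0.0095, -0.0827, -0.0619, and -0.0304 to 0.0404 under the same changes, and Pfas -0.0364 with median-ratio scaling, -0.0411 after quantile normalization and -0.0268 to 0.0628 with a library left out. Paics between the controls was 0.0432 with TPM, and passed as lower after quantile normalization (limma adjusted p = 0.0204) or median-ratio scaling (0.00486).

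Scaling set how calls over all genes divided. The difference of responses had 3888 genes above and 2285 below 0, against 3009 and 3053 with median-ratio scaling, or 3069 and 2989 after quantile normalization. The controls had 5037 higher and 3033 lower, against 3938 and 3990, and 4045 and 3893. Rescaling to TPM did not even the split, at 3396 above and 2227 below 0 for the difference of responses and 5676 higher and 2364 lower for the controls. Pfas could not be tested with a filter of at least 5 RPKM, and its low level limits what could be seen. The difference of the responses has no fit with only the libraries compared, since it uses all 12. Cd68, the 1 macrophage marker tested, lost its call in knockdown (adjusted p = 0.046) in several alternatives, at up to 0.175.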
